A study of Homo sapiens with 6 samples.

Results

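Complex I (NADH:ubiquinone oxidoreductase) takes electrons from NADH, passes them along iron-sulfur clusters to ubiquinone and pumps protons across the inner mitochondrial membrane. It has an L shape, with a matrix arm that oxidises NADH and a membrane arm that pumps. A small set of core subunits carries the catalysis and is conserved from bacteria, part of it encoded by mitochondrial DNA, while the many accessory subunits surround the core, and assembly factors help to build the complex without staying in it. The genes studied here were the protein-coding rows of the gene table whose symbol starts with NDUF, without NDUFA4, which belongs to cytochrome c oxidase, and its paralog NDUFA4L2. There were 46 such genes among 58735 in the table: 37 subunits (7 nuclear core and 30 accessory), 8 NDUFAF assembly factors and 1 readthrough locus, NDUFC2-KCTD14.

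RNA had been sequenced from HCT116SCs, the CD44+CD326+ fraction sorted from HCT116, a human colorectal carcinoma line, and grown as spheres in serum-free medium with EGF, bFGF and B27. Cells were transfected with negative control siRNA (NC, 3 libraries) or with siRNA against PSCA, prostate stem cell antigen (siPSCA, 3 libraries), and collected after 48 h. The comparison asks how silencing of PSCA alters the transcriptome of these cells. The labels do not say which of the study's PSCA siRNAs a library received or whether libraries came from separate cultures, so p-values measure the spread between libraries, which may be technical, and all cells come from 1 line. The titles of siPSCA 2 and siPSCA 3 name HCT117 and HCT118, whereas their other labels name HCT116.

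Between 16099716 and 17302219 reads lay on genes in each library. The targeted gene, PSCA, had 4, 12 and 15 reads in NC 1 to NC 3 and 9, 9 and 7 reads in siPSCA 1 to siPSCA 3, so at this depth its RNA gives no check of the knockdown. The paper reports from Western blots that each of its PSCA siRNAs lowered PSCA protein in HCT116SCs. EPCAM (CD326) was at 93.3 to 123 FPKM (fragments per kilobase of gene length, scaled to library size) in the 6 libraries. CD44 was at 79.2 to 87.5 FPKM in NC and lower, at 59.6 to 62.4 FPKM, in siPSCA, and the part of this in the results was not tested. Of 6 epithelial markers KRT8, KRT18, KRT19 and CDH1 were at 18.8 to 378 FPKM. CDH1 (E-cadherin) was lower in siPSCA (18.8 to 19.9 FPKM, against 28.0 to 32.1 in NC) at -0.60 ± 0.063 (SE, adjusted p = 0.00134) log2 units, and the keratins KRT8 (0.22) and KRT19 (0.25) were called higher, which likewise was not tested for its part in the results. After each library was corrected for its trend on GC content and gene length, KRT8 (-0.022) and KRT19 (-0.27) had no call. KRT18 (-0.44) was then called lower, and CDH1 (-0.60) still was. The intestinal markers in that list were lacking, since CDX1 had no read and VIL1 at most 5. Of 8 markers of blood, endothelial and fibroblast cells, COL1A1 alone reached 1 FPKM (3.35 to 6.51 FPKM). NC 3 stood apart: over genes, the chi-square per degree of freedom of its counts was 25.6 against NC 1 and 20.5 against NC 2, whereas NC 1 and NC 2 gave 2.51 and pairs of siPSCA libraries 2.46 to 4.31. Counts of complex I genes are therefore given with and without it. As these are bulk samples, fewer cells of a type and less RNA per cell cannot be told apart.

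More complex I genes were higher in siPSCA than were lower. Of 46 genes, 45 had a read and 44 reached a mean of 1 FPKM over the 6 libraries and were tested with limma on log2(FPKM + 1), with Benjamini-Hochberg adjustment over all 13796 genes tested and calls at an adjusted p under 0.05. Of these, 21 were higher in siPSCA and 4 were lower (NDUFV2, NDUFAF7, NDUFA12 and NDUFC2), and 19 had no call. Among all genes tested 50.7% were called, 26.6% as higher and 24.2% as lower, against 47.7% and 9.09% of the complex I genes. Their median log2 fold change (siPSCA minus NC) was 0.19, and that of all genes tested 0.0091. In 24 genes every siPSCA library lay above every NC library, and in 5 every one lay below, where 33.7% and 30.8% of all genes did. When genes had to pass an unadjusted p of 0.05 and to change by more than 0.5 log2 units, 14 were higher and 1, NDUFV2, was lower, and 24.9% of all genes passed that rule. Without an FPKM minimum NDUFA11, NDUFA12, NDUFAF2, NDUFB3, NDUFB4 and NDUFC2 lost their calls. Without NC 3 all 21 were called again, together with NDUFB11, and 4 were lower. Leaving out siPSCA 1 took the numbers to 14 higher and 2 lower. Under all 6 leave-outs, 14 of the 21 kept their call: NDUFS3, NDUFS8, NDUFA1, NDUFA2, NDUFA3, NDUFA8, NDUFAB1, NDUFB2, NDUFB6, NDUFB7, NDUFB10, NDUFC1, NDUFAF3 and NDUFAF8.

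**Figure D1:**
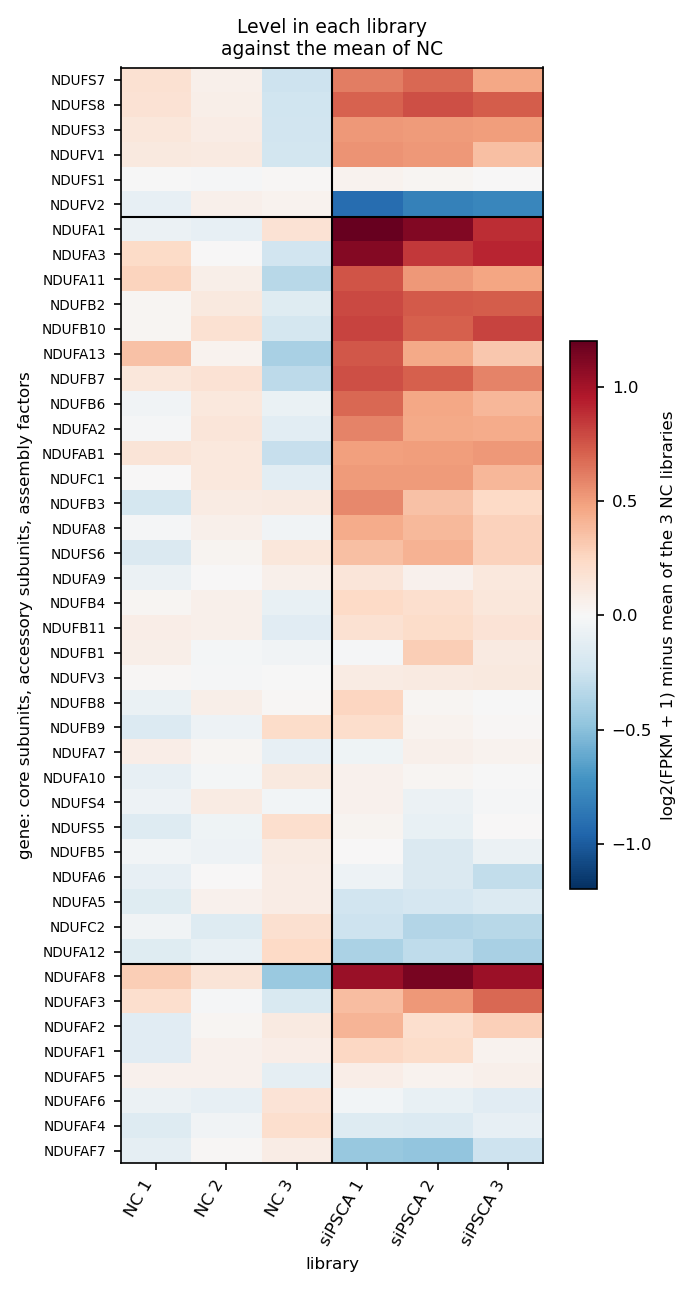
Level of 36 subunits and 8 assembly factors in each of the 6 libraries, as log2(FPKM + 1) minus the mean of the 3 NC libraries (colour), with core subunits, accessory subunits and assembly factors from top to bottom and genes in order of their fold change. Red columns under siPSCA stand against the blue row of NDUFV2, and NC 3 is paler or bluer than NC 1 and NC 2 in many of the genes that are red in siPSCA.

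More subunits were higher than lower, and 4 of the 8 assembly factors were called, where 50.7% of all genes were. Of 36 subunits tested, 18 were higher and 3 lower, with a median log2 fold change of 0.27 and single values from -0.83 to 1.08. Of 8 assembly factors, 3 were higher and 1 was lower, beside 26.6% and 24.2% of all genes, and only 2 were higher without an FPKM minimum, under TPM scaling, under the replicate block and in 4 of the 6 leave-outs. They had a median of 0.12 and a range of -0.39 to 1.07. Medians of the subunits' deviations from the NC mean were -0.0075, 0.061 and -0.041 log2 units in NC 1 to NC 3 and 0.31, 0.32 and 0.20 in siPSCA 1 to siPSCA 3. For the assembly factors they were -0.088, 0.021 and 0.085 in NC and 0.17, 0.12 and 0.049 in siPSCA, so NC 3 lay above siPSCA 3. Without NC 3 the medians of the fold changes were 0.26 for subunits and 0.11 for assembly factors. Genes are not replicates of a condition, so this difference between the classes carries no test.

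Within the subunits, both arms held more higher than lower genes, and the difference between the arms was not tested. In the membrane arm 11 of 20 were higher and 1 was lower, with a median of 0.38. In the matrix arm 6 of 15 were higher and 2 were lower, with a median of 0.11. Higher and lower genes made up 55.0% and 5.00% of the membrane arm and 40.0% and 13.3% of the matrix arm. Among all genes tested they made up 26.6% and 24.2%. All 11 NDUFB subunits, which sit in the membrane arm, were tested, and 6 were higher and 0 lower. At an unadjusted p under 0.05 limma's test likewise gave no lower NDUFB subunit. NDUFAB1, the mitochondrial acyl carrier protein that occurs in both arms, was higher at 0.51 ± 0.12 (SE, adjusted p = 0.0146) log2 units.

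**Figure D2:**
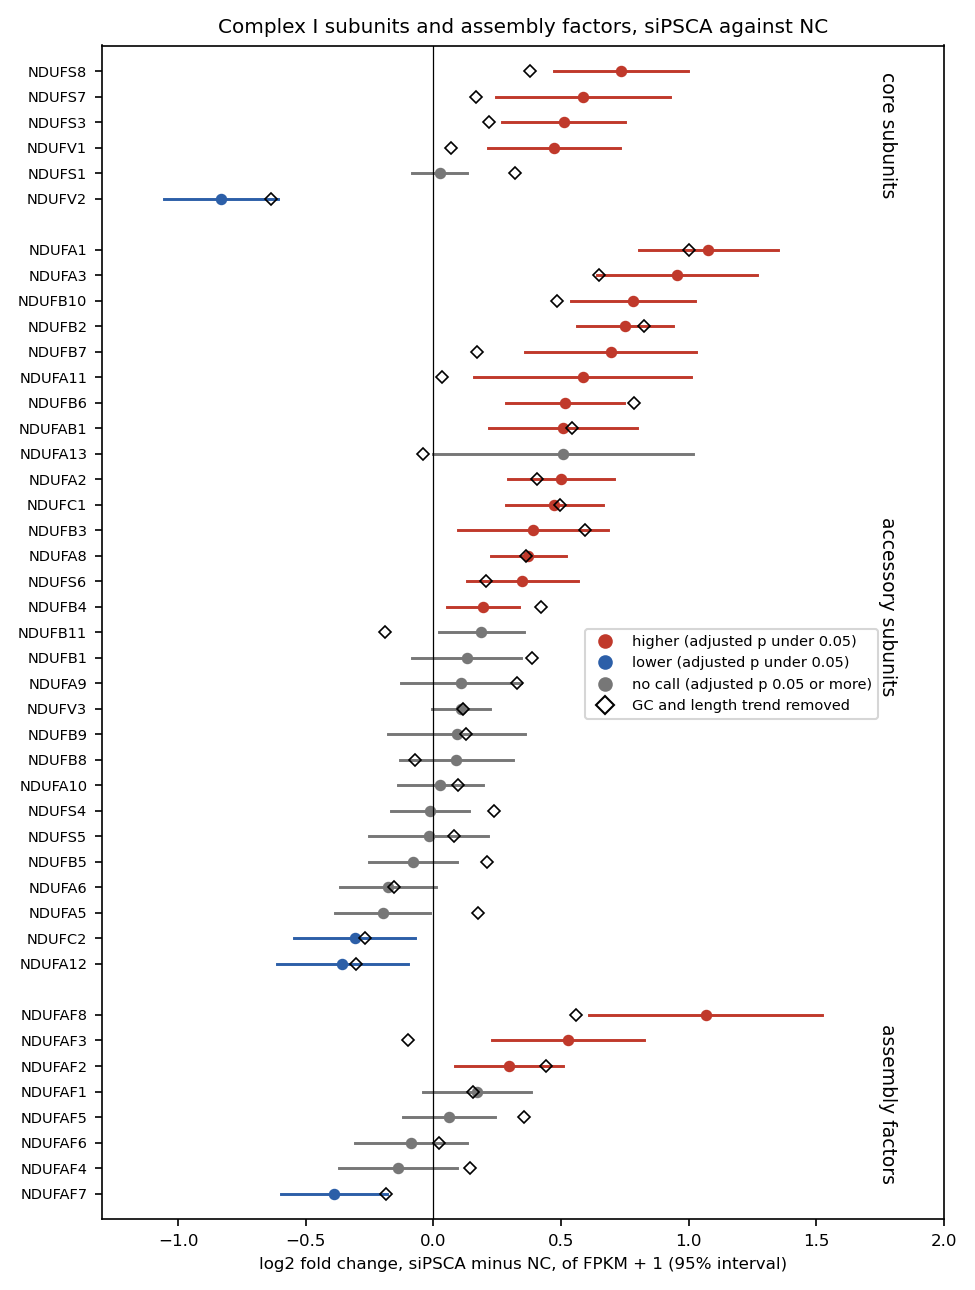
Fold change of 43 of the 44 genes tested (log2 of FPKM + 1, siPSCA minus NC), with its 95% interval from limma and coloured by call, and the value after correction of each library for GC content and length (open diamond). NDUFA1 (1.08) and NDUFAF8 (1.07) lie farthest to the right and NDUFV2 (-0.83) farthest to the left.

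Of the core subunits, 4 of 7 rose, 1 fell and 2 had no call, where 26.6% of all genes were higher and 24.2% lower. NDUFS8, which carries iron-sulfur clusters on the way to ubiquinone, was at 10.6, 9.75 and 7.69 FPKM in NC 1 to NC 3 and 15.7, 16.5 and 15.9 FPKM in siPSCA 1 to siPSCA 3. The groups did not overlap, and the log2 fold change was 0.73 ± 0.11 (SE, adjusted p = 0.00327), a ratio of means of 1.72. NDUFS3, a neighbour in the arm that leads to ubiquinone, was at 11.9, 11.5 and 9.03 FPKM in NC 1 to NC 3 and 15.8, 15.7 and 15.6 FPKM in siPSCA 1 to siPSCA 3. All siPSCA libraries lay within a narrow band above NC, 0.51 ± 0.10 (SE, adjusted p = 0.00797) on the log2 scale. NDUFV1, which binds NADH and holds the flavin, was at 15.4, 15.3 and 12.1 FPKM in NC 1 to NC 3 and 21.0, 20.8 and 18.5 FPKM in siPSCA 1 to siPSCA 3. It rose by 0.47 ± 0.11 (SE, adjusted p = 0.0128) and missed the threshold without siPSCA 1. NDUFS7, which holds the last iron-sulfur cluster before ubiquinone, had low values of 1.14, 0.960 and 0.586 FPKM in NC 1 to NC 3 and 1.88, 2.02 and 1.59 FPKM in siPSCA 1 to siPSCA 3. The groups were apart, at 0.59 ± 0.14 (SE, adjusted p = 0.0157), and the call was lost without siPSCA 1 or without siPSCA 2. In each of these 4 genes NC 3 was the lowest library.

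NDUFV2, the iron-sulfur partner of NDUFV1 at the tip of the matrix arm, moved the other way. It lies at chr18:9102630-9134345 (GRCh38) and was at 2.13, 2.50 and 2.44 FPKM in NC 1 to NC 3 and 0.785, 0.913 and 0.952 FPKM in siPSCA 1 to siPSCA 3. NC libraries stood 2.67 times as high as siPSCA libraries on average, with no overlap, and the log2 fold change was -0.83 ± 0.092 (SE, adjusted p = 0.00147), lower in every leave-out. NDUFS1, the largest subunit of the matrix arm, was at 9.50, 9.43 and 9.61 FPKM in NC 1 to NC 3 and 9.79, 9.71 and 9.56 FPKM in siPSCA 1 to siPSCA 3, with overlapping groups. It was not called, with a log2 fold change of 0.024 (95% interval -0.085 to 0.13, adjusted p = 0.680, limma).

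**Figure D3:**
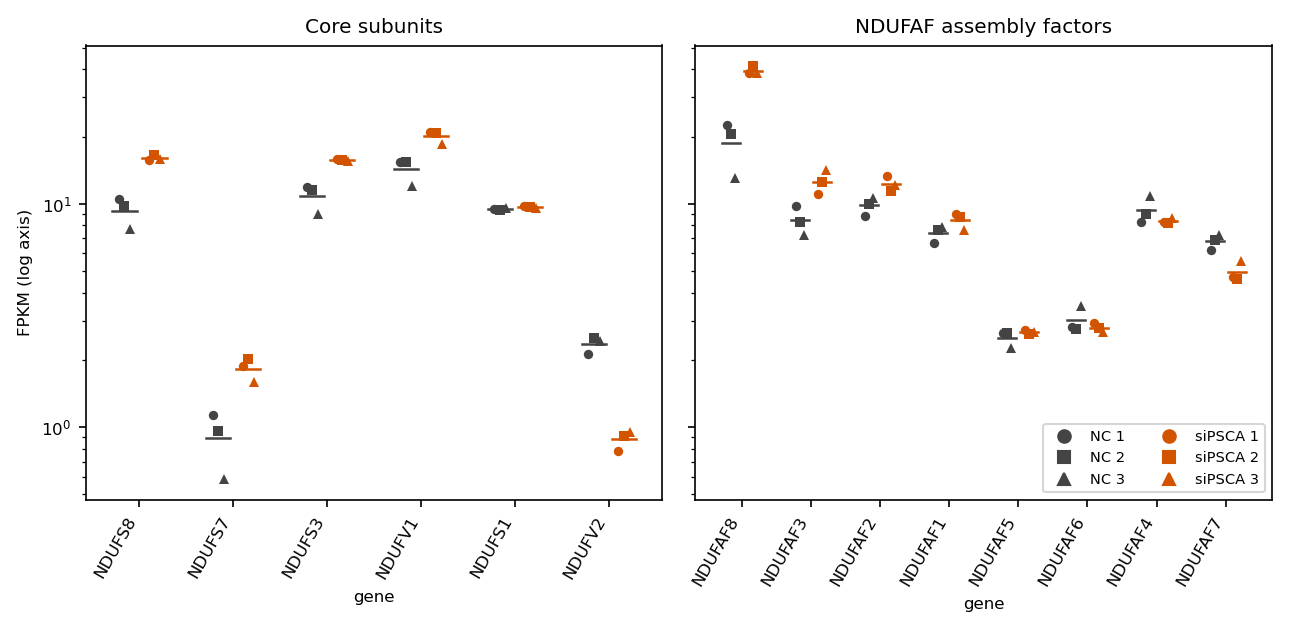
FPKM of 6 core subunits and the 8 assembly factors in each library on a log axis, ordered by fold change, with a marker for each library and a bar for the mean of each group. The siPSCA libraries lie above all NC libraries in NDUFS8, NDUFS7, NDUFS3, NDUFV1, NDUFAF8, NDUFAF3 and NDUFAF2 and below them in NDUFV2 and NDUFAF7, and NC 3 lies lowest of the NC libraries in NDUFAF8.

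Of the 29 accessory subunits tested, 14 were higher and 2 lower, with a median of 0.19. These were 48.3% and 6.90%, beside 26.6% and 24.2% of all genes. The highest fold change belonged to NDUFA1, a small membrane-arm subunit on the X chromosome (chrX:119871487-119876662), at 18.3, 18.0 and 21.9 FPKM in NC 1 to NC 3 and 46.8, 42.8 and 36.7 FPKM in siPSCA 1 to siPSCA 3. Its log2 fold change was 1.08 ± 0.11 (SE, adjusted p = 0.00134), a ratio of 2.17, and here NC 3 was the highest NC library. NDUFA3, also of the membrane arm, was at 6.59, 5.50 and 4.53 FPKM in NC 1 to NC 3 and 12.9, 10.7 and 11.2 FPKM in siPSCA 1 to siPSCA 3 and rose by 0.95 ± 0.13 (SE, adjusted p = 0.00249). For both genes every siPSCA library lay above every NC library. NDUFB10 and NDUFB7 face the intermembrane space and carry paired cysteine motifs. NDUFB10 was at 46.7, 52.1 and 39.5 FPKM in NC 1 to NC 3 and 81.3, 76.2 and 81.1 FPKM in siPSCA 1 to siPSCA 3, a log2 fold change of 0.78 ± 0.10 (SE, adjusted p = 0.00217). NDUFB7 was at 56.3, 57.9 and 40.8 FPKM in NC 1 to NC 3 and 87.9, 84.3 and 77.6 FPKM in siPSCA 1 to siPSCA 3, at 0.69 ± 0.14 (SE, adjusted p = 0.00847). NC 3 was the lowest library for each of the pair. NDUFB2 was at 4.98, 5.35 and 4.32 FPKM in NC 1 to NC 3 and 9.18, 8.74 and 8.68 FPKM in siPSCA 1 to siPSCA 3, with siPSCA libraries close together and a log2 fold change of 0.75 ± 0.077 (SE, adjusted p = 0.00129). NDUFA11, a membrane-arm subunit, was near the minimum level, at 1.43, 1.13 and 0.600 FPKM in NC 1 to NC 3 and 2.42, 1.90 and 1.81 FPKM in siPSCA 1 to siPSCA 3. It passed the test at 0.58 ± 0.18 (SE, adjusted p = 0.0328) but kept its call in only 2 of the 6 leave-outs, those of NC 1 and NC 3.

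At the low end, NDUFA12 and NDUFC2 fell and 4 accessory subunits had no call. NDUFA12, a matrix-arm subunit, was at 12.9, 13.4 and 17.0 FPKM in NC 1 to NC 3 and 10.7, 11.4 and 10.7 FPKM in siPSCA 1 to siPSCA 3. All siPSCA libraries lay below NC, at -0.36 ± 0.11 (SE, adjusted p = 0.0312) on the log2 scale, and the call was lost when any siPSCA library was left out. NDUFC2, of the membrane arm, was at 6.69, 6.11 and 8.05 FPKM in NC 1 to NC 3 and 5.66, 5.20 and 5.30 FPKM in siPSCA 1 to siPSCA 3, at -0.31 ± 0.098 (SE, adjusted p = 0.0385), and was called in 2 of 6 leave-outs. Without siPSCA 1, siPSCA 2 or siPSCA 3, or without NC 1, its adjusted p was above 0.05. NDUFA5 was at 5.65, 6.62 and 6.84 FPKM in NC 1 to NC 3 and 5.26, 5.39 and 5.56 FPKM in siPSCA 1 to siPSCA 3, -0.20 log2 units with an adjusted p of 0.0696 (limma). NDUFA6, which binds the acyl carrier protein, was at 35.5, 38.1 and 40.4 FPKM in NC 1 to NC 3 and 36.2, 33.4 and 30.8 FPKM in siPSCA 1 to siPSCA 3, -0.18 log2 units with an adjusted p of 0.0999 (limma). Every siPSCA library of NDUFA5 lay below every NC library, the groups of NDUFA6 overlapped, and neither gene passed. NDUFB5 was at 10.2, 10.00 and 11.3 FPKM in NC 1 to NC 3 and 10.5, 9.15 and 9.96 FPKM in siPSCA 1 to siPSCA 3 and stood at -0.081 log2 units (95% interval -0.25 to 0.093). NDUFS5, the most abundant of the 44 per length, was at 182, 195 and 232 FPKM in NC 1 to NC 3 and 206, 189 and 203 FPKM in siPSCA 1 to siPSCA 3, -0.019 log2 units (95% interval -0.25 to 0.21), with NC 3 the highest of all 6 libraries.

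The other 17 accessory subunits were those left after the 6 highest and 6 lowest fold changes were set apart. They ranged from -0.013 to 0.51 log2 units, and 8 were higher. That none was lower follows from this choice. The 8 were NDUFB6 (0.51), NDUFAB1 (0.51), NDUFA2 (0.50), NDUFC1 (0.47), NDUFB3 (0.39), NDUFA8 (0.37), NDUFS6 (0.35) and NDUFB4 (0.19). The 9 without a call were NDUFA13 (0.51), NDUFB11 (0.19), NDUFB1 (0.13), NDUFA9 (0.11), NDUFV3 (0.11), NDUFB9 (0.090), NDUFB8 (0.089), NDUFA10 (0.027) and NDUFS4 (-0.013). NDUFA13, of the membrane arm, was at 1.89, 1.34 and 0.729 FPKM in NC 1 to NC 3 and 2.79, 2.10 and 1.84 FPKM in siPSCA 1 to siPSCA 3. Its groups overlapped, and the log2 fold change of 0.51 ± 0.21 (SE, adjusted p = 0.0875) was not called. NDUFA7, a matrix-arm subunit, was not tested, with 1.05, 0.975 and 0.822 FPKM in NC 1 to NC 3 and 0.878, 1.04 and 1.01 FPKM in siPSCA 1 to siPSCA 3, and its groups overlapped. NDUFC2-KCTD14 had 0 reads in all libraries.

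The assembly factors split by gene. NDUFAF8, which works with NDUFAF5 on the NDUFS7 side of the complex and lies at chr17:81239239-81241281, was at 22.6, 20.5 and 13.1 FPKM in NC 1 to NC 3 and 38.5, 41.3 and 38.4 FPKM in siPSCA 1 to siPSCA 3. It rose by 1.07 ± 0.19 (SE, adjusted p = 0.00562), a ratio of 2.10, whereas its partner NDUFAF5, an arginine hydroxylase that acts on NDUFS7, was at 2.64, 2.65 and 2.26 FPKM in NC 1 to NC 3 and 2.71, 2.62 and 2.66 FPKM in siPSCA 1 to siPSCA 3, 0.061 log2 units with an adjusted p of 0.514 (limma). The groups lay far apart for the former and overlapped for the latter. NDUFAF3 and NDUFAF4 act together early in assembly. NDUFAF3 was at 9.76, 8.28 and 7.25 FPKM in NC 1 to NC 3 and 11.1, 12.5 and 14.1 FPKM in siPSCA 1 to siPSCA 3 and rose by 0.53 ± 0.12 (SE, adjusted p = 0.0144). NDUFAF4 was at 8.27, 9.02 and 10.8 FPKM in NC 1 to NC 3 and 8.28, 8.20 and 8.62 FPKM in siPSCA 1 to siPSCA 3, -0.14 log2 units with an adjusted p of 0.258 (limma), and its groups overlapped. Whether the members of either pair differ in response was not tested.

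NDUFAF2 is a paralog of NDUFA12 and takes its place in a late assembly intermediate. It was at 8.84, 9.99 and 10.7 FPKM in NC 1 to NC 3 and 13.4, 11.4 and 12.1 FPKM in siPSCA 1 to siPSCA 3 and rose by 0.30 ± 0.087 (SE, adjusted p = 0.0306), whereas NDUFA12 fell by 0.36 on the log2 scale. NDUFAF2 kept its call in 2 of 6 leave-outs, those of NC 3 and siPSCA 2. NDUFAF7, a methyltransferase of the mitochondrial matrix, was at 6.24, 6.87 and 7.27 FPKM in NC 1 to NC 3 and 4.69, 4.61 and 5.55 FPKM in siPSCA 1 to siPSCA 3. It fell in all leave-outs, at -0.39 ± 0.086 (SE, adjusted p = 0.0117). NDUFAF1, which works on the membrane arm with ECSIT and ACAD9, was at 6.65, 7.67 and 7.88 FPKM in NC 1 to NC 3 and 8.98, 8.74 and 7.60 FPKM in siPSCA 1 to siPSCA 3. Its groups overlapped, at 0.17 ± 0.087 (SE, adjusted p = 0.150). NDUFAF6 was at 2.81, 2.76 and 3.51 FPKM in NC 1 to NC 3 and 2.92, 2.77 and 2.66 FPKM in siPSCA 1 to siPSCA 3, at -0.087 ± 0.091 (SE, adjusted p = 0.450), with NC 3 the highest library.

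The fold changes of complex I genes went with the base composition of their transcripts, as did those of all genes. Across the 44 genes GC content of the longest transcript and log2 fold change had a Spearman correlation of 0.66, and across 13792 genes with a GC value it was 0.66 as well. These genes share the 6 libraries and are not independent. The median GC content was 53.9% in the 21 higher genes, 43.3% in the 4 lower and 45.7% in those without a call. NC 3 moved with this too: it lay a median of 0.28 log2 units below NC 1 and NC 2 in the 21 higher genes and 0.21 above them in the 4 lower ones. As NC 3 is part of the contrast that made these calls, some of this follows from the choice of genes. Over all 44 genes tested the median of NC 3 minus NC 1 and NC 2 was -0.056. Beyond the leave-out of NC 3 given above, where all 21 were called again, the part of NC 3 in the result was not tested. The condition and any difference in library preparation cannot be told apart.

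When each library was corrected for its trend on GC content and gene length, 22 of the 44 were higher and 4 lower, with a median of 0.19, where 21.2% and 18.4% of all genes were called in those directions. Of the 21 genes called higher before, 16 were called again. NDUFV1 (0.069), NDUFS7 (0.17), NDUFA11 (0.032), NDUFS6 (0.21) and NDUFAF3 (-0.099) lost the call, and the sign of NDUFAF3 turned. NDUFS1 (0.32), NDUFS4 (0.24), NDUFA9 (0.33), NDUFB1 (0.39), NDUFB5 (0.21) and NDUFAF5 (0.35) gained one. Among the strongest changes, NDUFA1 stood at 1.00, NDUFB2 at 0.82, NDUFA3 at 0.65, NDUFAF8 at 0.56, NDUFB10 at 0.49 and NDUFV2 at -0.64, all still called. NDUFB7 was called at 0.17, below the 0.69 of before. Among the lower genes NDUFA12 (-0.30) and NDUFC2 (-0.27) remained, NDUFAF7 (-0.19) did not, and NDUFB11 (-0.19), positive before, was added. The core subunits then held 3 higher and 1 lower, and the membrane arm 12 higher and 2 lower.

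**Figure D4:**
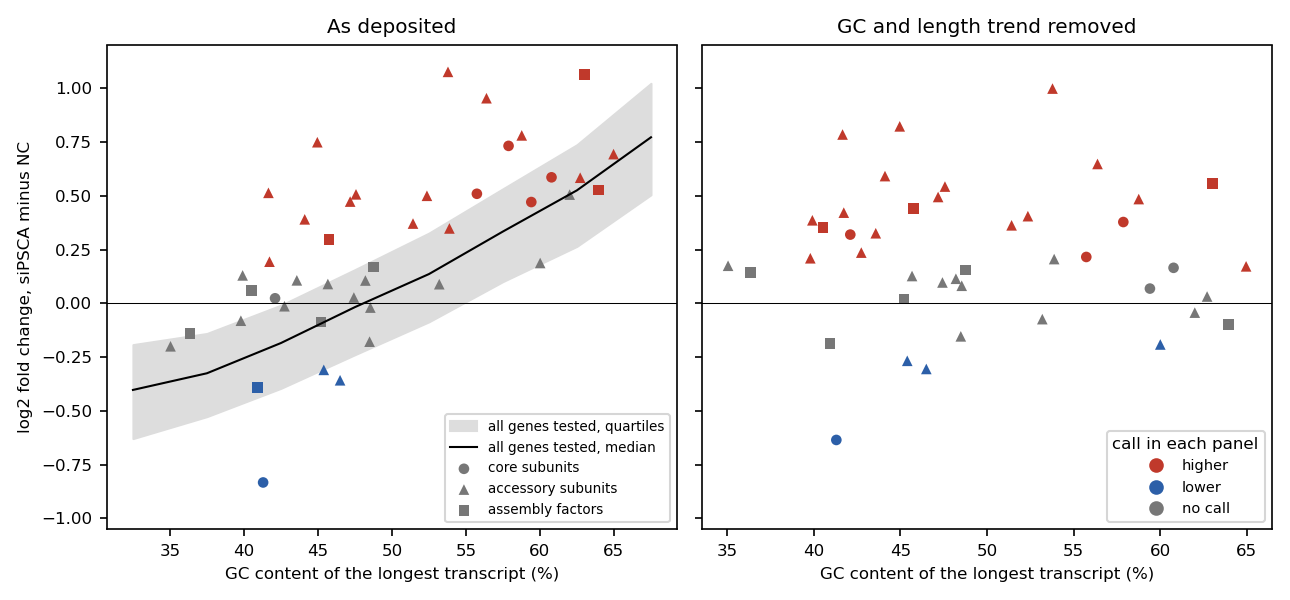
Log2 fold change of 43 of the 44 genes against the GC content of the longest transcript, as deposited (left, with the median and quartiles of all genes tested in bins of 5 percentage points) and after correction of each library for GC content and length (right). Markers give the class and colours the call in that panel. On the left the median of all genes climbs from -0.40 in the bin that starts at 30% to 0.77 in the bin that starts at 65%. In the bin that starts at 40%, NDUFB6, NDUFB3 and NDUFB2 lie farthest above the band, and other genes also lie above it.

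Part of the family could be counted only in part. Of 710 genes in the table whose exonic bases all lie on exons of another gene on the other strand, 710 had 0 reads in all libraries, and of 1139 with all bases on exons of another gene on the same strand, 1093 did, whereas 47.0% of genes that share no exonic base had 0 reads. Reads in exons that lie wholly within another gene's exons were thus rarely counted for that gene. NDUFC2-KCTD14 is one of the 1139. A further 9 complex I genes share over 30% of their coding bases with exons of another gene: NDUFB8 (85.2%), NDUFV2 (84.7%), NDUFA7 (78.3%), NDUFC2 (76.9%), NDUFA9 (67.9%), NDUFA13 (55.2%), NDUFS7 (48.5%, on the other strand), NDUFB2 (45.2%, on the other strand) and NDUFA11 (37.8%). The 8 of these that were tested had mean levels of 1.06 to 6.87 FPKM with a median of 1.70, and the 32 that share no coding base a median of 17.2 FPKM. Grouping by all exonic bases would differ. NDUFA1 and NDUFB11, at mean levels of 30.8 and 34.0 FPKM, share no coding base but 44.5% and 44.9% of their exonic bases. Of the named genes, NDUFS7 (49.1%) and NDUFB8 (48.5%) share as much, but NDUFA11 (12.1%) and NDUFA9 (10.6%) less. Whether the sharing accounts for the low levels of the 9 named genes was not tested. Their levels are not to be set beside those of other subunits, and their fold changes rest mostly on the rest of the gene. Median gene length also differed, at 3579 bases in the 8 tested and 1852 in the 32, and its part in the levels was not tested. Of the 8 tested, 3 were higher (NDUFB2, NDUFS7 and NDUFA11) and 2 lower (NDUFV2 and NDUFC2). Of the 32 that share no coding base, 16 were higher and 1, NDUFA12, was lower, beside 26.6% and 24.2% of all genes.

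**Figure D5:**
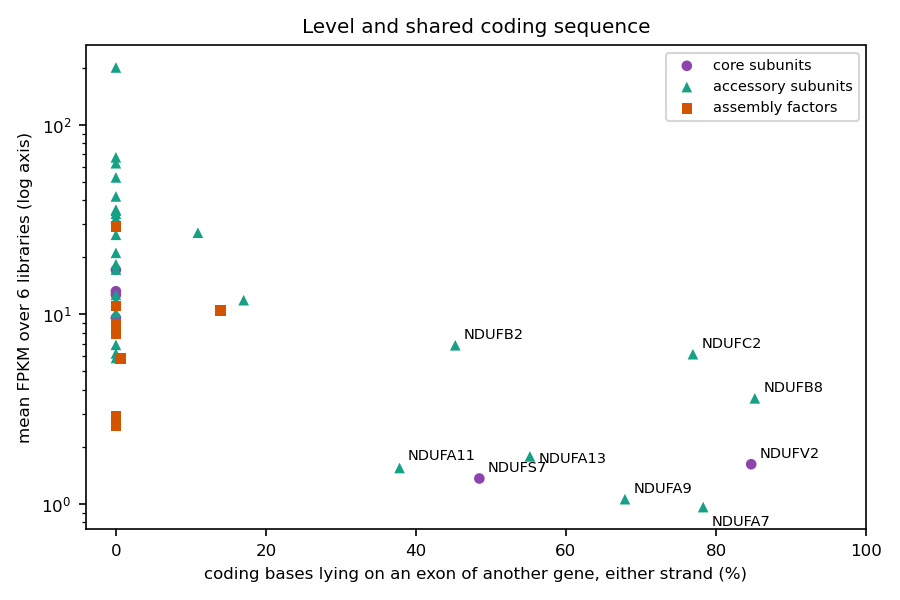
Mean FPKM over the 6 libraries (log axis) against the percentage of coding bases that lie on an exon of another gene on either strand, for 44 genes by class. The 9 named genes, with over 30% shared, lie at or below 6.87 FPKM.

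For NDUFV2 the overlapping locus is AP005263.1, on the same strand, which had 0 reads in all libraries. NDUFV2 also has a processed pseudogene, NDUFV2P1. Of the 50-base words of its transcripts 27.0% occur in other genes, and 10.0% in genes whose exons do not overlap its own. NDUFV2 itself had 97, 118 and 114 reads in NC 1 to NC 3 and 36, 44 and 47 in siPSCA 1 to siPSCA 3. Reads given to NDUFV2P1 numbered 15, 11 and 13 in NC 1 to NC 3 and 34, 31 and 36 in siPSCA 1 to siPSCA 3. It rose while NDUFV2 fell, at 0.76 ± 0.10 (SE, adjusted p = 0.00238) log2 units, and reads of the pair cannot be told apart where their sequence is the same. NDUFV2 is therefore uncertain as a measure of the whole transcript. KCTD14, the other gene of the readthrough locus, fell together with NDUFC2, at -0.48 ± 0.14 (SE, adjusted p = 0.0278).

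Promoters of complex I genes are shown because several of their known regulators bind short motifs near the start site. A promoter here is the stretch from 250 bases before to 50 bases after the start (RefSeq, GRCh38.p14; base 251 is the first of the transcript), and 40 of the 46 genes had one or more in the table. Motifs searched on both strands were GCGCANGCG for NRF1, CCGGAAGT for ETS factors such as GABPA, and AAGATGGCG for YY1. One or more was found in 18 of the 40 genes (45%) and in 14.6% of all 27305 genes with a promoter. NRF1's motif was in 27.5% against 9.02%, that of YY1 in 17.5% against 2.14%, and that of ETS factors in 5.00% against 4.95%. The following promoters belong to the 2 strongest rises, to NDUFA3 and NDUFS7, which rose and hold motifs, and to NDUFV2, which fell, with each match in capitals and their positions, in that order, at chrX:119871582-119871881, chr17:81239061-81239360, chr19:54102605-54102904, chr19:1383657-1383956 and chr18:9102449-9102748, all on the + strand.
NDUFA1: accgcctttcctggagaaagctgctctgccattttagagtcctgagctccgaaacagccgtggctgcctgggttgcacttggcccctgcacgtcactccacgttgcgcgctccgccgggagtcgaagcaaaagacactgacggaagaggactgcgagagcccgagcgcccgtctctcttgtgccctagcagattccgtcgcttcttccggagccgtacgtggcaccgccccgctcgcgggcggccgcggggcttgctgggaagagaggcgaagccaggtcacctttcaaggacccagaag
NDUFAF8: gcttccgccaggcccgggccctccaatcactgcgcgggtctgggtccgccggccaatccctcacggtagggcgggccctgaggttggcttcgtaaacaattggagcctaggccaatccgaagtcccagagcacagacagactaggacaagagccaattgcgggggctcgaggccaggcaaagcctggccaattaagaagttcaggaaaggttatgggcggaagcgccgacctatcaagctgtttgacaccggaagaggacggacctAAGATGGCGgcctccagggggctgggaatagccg
NDUFA3: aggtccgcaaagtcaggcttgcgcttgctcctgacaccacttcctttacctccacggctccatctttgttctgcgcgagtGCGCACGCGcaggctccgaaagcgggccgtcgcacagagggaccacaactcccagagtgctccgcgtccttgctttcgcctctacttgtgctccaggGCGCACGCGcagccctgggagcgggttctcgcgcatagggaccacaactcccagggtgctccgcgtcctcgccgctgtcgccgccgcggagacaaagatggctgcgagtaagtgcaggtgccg
NDUFS7: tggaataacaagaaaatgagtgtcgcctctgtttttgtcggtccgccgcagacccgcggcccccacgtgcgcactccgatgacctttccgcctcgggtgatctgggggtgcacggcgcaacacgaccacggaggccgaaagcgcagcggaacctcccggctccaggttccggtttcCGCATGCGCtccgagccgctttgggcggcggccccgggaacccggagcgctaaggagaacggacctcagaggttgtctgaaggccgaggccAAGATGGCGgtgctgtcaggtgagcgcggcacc
NDUFV2: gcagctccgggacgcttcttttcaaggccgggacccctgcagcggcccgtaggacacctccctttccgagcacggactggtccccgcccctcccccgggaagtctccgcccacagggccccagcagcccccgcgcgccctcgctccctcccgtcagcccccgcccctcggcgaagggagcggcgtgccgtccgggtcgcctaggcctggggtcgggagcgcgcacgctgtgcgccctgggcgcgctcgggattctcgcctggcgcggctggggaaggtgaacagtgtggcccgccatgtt

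NDUFA3 holds the NRF1 motif at bases 81 and 178, NDUFS7 holds it at base 177, on the opposite strand, and the YY1 motif at base 268, and NDUFAF8 holds the YY1 motif at base 267. The promoters of NDUFA1 and NDUFV2 hold none. By call, 8 of the 21 higher genes held a motif, as did 1 of 3 lower genes with a promoter and 8 of 14 without a call. A match describes letters only.

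The subunits encoded by mitochondrial DNA were also higher or without a call. Of 7 tested, 4 were higher and 0 lower, beside 26.6% and 24.2% of all genes, with a median log2 fold change of 0.31. At an unadjusted p under 0.05 limma gave 0 lower ones. MT-ND3 was at 2211, 2164 and 1398 FPKM in NC 1 to NC 3 and 3918, 3685 and 3673 FPKM in siPSCA 1 to siPSCA 3, at 1.00 ± 0.18 (SE, adjusted p = 0.00592). MT-ND1 rose by 0.86 ± 0.20 (SE, adjusted p = 0.0136), MT-ND2 by 0.59 ± 0.15 (SE, adjusted p = 0.0195) and MT-ND5 by 0.31 ± 0.050 (SE, adjusted p = 0.00414). Without an FPKM minimum none of these 4 was called, with limma adjusted p of 0.0652 for MT-ND3, 0.0890 for MT-ND1, 0.233 for MT-ND2 and 0.300 for MT-ND5. MT-ND4 stood at -0.033, MT-ND4L at 0.061 and MT-ND6 at 0.067, without a call. Under limma-voom on recovered reads, and with the GC and length trend removed, the 4 higher ones were called higher again. NC 3 was the lowest of the NC libraries in all 7. Among 13 assembly factors of complex I that lack an NDUF name, 4 were higher and 0 lower, 30.8% beside the 26.6% of all genes called higher, with a median of 0.21. These were DMAC2 (0.56), ECSIT (0.49), ACAD9 (0.48) and TMEM70 (0.43). With the GC and length trend removed ECSIT stood at -0.032 and was no longer called, while ACAD9, at 0.29, was. In the nuclear-encoded subunits of complexes II to V, 20 of 42 tested were higher and 3 lower. They made up 47.6% and 7.14%, beside 26.6% and 24.2% of all genes. The median was 0.20, close to the 0.19 of the complex I genes.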

How the data were processed

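Paired-end libraries (NEBNext Ultra kit, Illumina) of 3 NC and 3 siPSCA samples were compared. The authors deposited 1 table of FPKM per gene, with gene lengths, on GRCh38 with the 58735 genes of GENCODE release 29; the aligner, the counting tool and its strand setting are not given in the sources used here. Times gene length, 100% of values above 0 were whole multiples of 1 read within 0.1 read, which gave library totals of 16803235 to 18218661 and reads on genes of 94.4 to 97.0%. Counting error is thus small for abundant genes and large near 1 FPKM.

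Genes with a mean of at least 1 FPKM were tested as log2(FPKM + 1) with limma 3.58.1 (trended eBayes, R 4.3.3), 2-sided, with Benjamini-Hochberg adjustment over all genes tested. A fold change on this scale understates the change of low genes. The script was tested on simulated data. For single values an exact permutation test of 3 against 3 libraries cannot go below p = 0.1. Each library was corrected for GC content and gene length with natural splines (5 df each) on its deviations, with GC content taken from the longest transcript. Overlaps between genes came from the GENCODE annotation and promoters from RefSeq.

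Members, classes and lists were chosen with earlier results of these data known. Named in full were the core subunits, all NDUFAF genes and the 6 highest and 6 lowest accessory subunits; 1 gene was counted with its class but is not reported here by name or value, nor drawn; partner loci, pseudogenes and the printed promoters were named after their values were seen. Alternatives were another pseudocount, no or a higher FPKM minimum, TPM scaling, limma-voom on recovered reads, the replicate number as a block, the GC and length correction, another call rule and leaving out each library.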

Additional observations from a re-analysis of the deposited data

How the results depend on the processing

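Calls of complex I genes rested most on siPSCA 1 and on the rule for calling. Without siPSCA 1, 4627 genes of all kinds were called in place of 7001, and under the block with the GC and length trend removed 4643. By unadjusted p and fold change the calls numbered 3434 over all genes, 15 for complex I genes, 13 for subunits and 2 for assembly factors. Leaving out each library gave 4627 to 7425 calls among all genes, 16 to 26 complex I genes, 13 to 22 subunits, 3 to 4 assembly factors, and medians of 0.24 to 0.30 for subunits and 0.090 to 0.15 for assembly factors. The subunit median was 0.19 without an FPKM minimum, and that of assembly factors 0.23 with a mean of at least 5 FPKM, where 6 of the 8 remained. The cause was not tested.

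Among the genes reported by name, signs turned with the GC and length trend removed, with or without the block, for NDUFS5 (0.082), NDUFB11 (-0.19), NDUFS4 (0.24), NDUFAF3 (-0.099), NDUFB5 (0.21), NDUFAF4 (0.14), NDUFA5 (0.18), NDUFB8 (-0.073), NDUFAF6 (0.020) and NDUFA13 (-0.043). Of these only NDUFAF3 had been called. Under limma-voom NDUFS5 (0.0071) and NDUFS4 (0.012) turned, and under TPM scaling NDUFA10 (-0.017) and NDUFS1 (-0.020), all near 0. Across the leave-outs NDUFS5 ran from -0.095 to 0.080, NDUFS4 from -0.046 to 0.035 and NDUFA10 from -0.022 to 0.088. No call of NDUFS8, NDUFA1, NDUFA3, NDUFB10, NDUFB2, NDUFAF8 or NDUFV2 was lost under an alternative that tested it, and all 7 passed the rule by unadjusted p and fold change.

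Deviations from the group means correlated at 0.096, 0.013 and 0.13 between NC and siPSCA libraries with the same replicate number. Between those with different numbers they correlated at -0.13 to 0.042. With 3 libraries in each group, these values do not settle whether the numbers pair the samples. With the number as a replicate block 20 complex I genes were higher and 4 lower, and with the block and the trend removed 18 and 2. Depth limits NDUFA7 and the other genes near 1 FPKM.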

Other observations

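Genes of the other respiratory complexes, which pass on the electrons of complex I or use the proton gradient, were described with the same test. COX8A and COX6A1, subunits of cytochrome c oxidase, rose by 1.07 ± 0.19 and 1.02 ± 0.10 (SE, n = 3 libraries each; limma adjusted p = 0.00563 and 0.00111). COX5A and CYC1, which carries the heme of cytochrome c1, rose by 0.87 and 0.82, but with the GC and length trend removed CYC1 stood at 0.19 and was no longer called. The 3 that fell were ATP5PO (-0.52), a stalk subunit of ATP synthase, UQCRC2 (-0.37) and COX7A2 (-0.30). With that trend removed 27 of 42 were higher and 3 lower, beside 21.2% and 18.4% of all genes, with a median of 0.23. The lower ones were then ATP5PO, UQCRC2 and UQCRC1 (-0.38, and 0.070 before), whereas COX7A2 (-0.10) was no longer called.

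Among 8 regulators of mitochondrial gene expression, 7 were tested, and 3 were higher and 2 lower. These were 42.9% and 28.6%, beside 26.6% and 24.2% of all genes. ESRRA, an orphan nuclear receptor, was at 12.0, 11.7 and 5.86 FPKM in NC 1 to NC 3 and 24.3, 23.5 and 21.9 FPKM in siPSCA 1 to siPSCA 3, with NC 3 far below the other NC libraries. PPRC1 rose by 0.41 and PPARGC1B by 0.21. GABPA, the DNA-binding part of NRF2, was at 14.1, 15.3 and 16.1 FPKM in NC and 8.81, 10.5 and 11.3 FPKM in siPSCA, and TFAM changed by -0.18. With the trend removed the 3 higher genes were ESRRA (0.61), PPARGC1B (0.23) and TFAM (0.13), so that TFAM, called lower before, was called higher. PPRC1 (0.13) and GABPA (-0.22) lost their calls, and 0 genes were lower. Among all genes 21.2% were then higher and 18.4% lower. At an unadjusted p under 0.05 limma then gave 1 lower gene, GABPA. PPARGC1A was listed at 0 or 1 read in each library.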
